A study of Homo sapiens with 89 samples.

Results

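The snoRNA host genes are genes that carry small nucleolar RNAs (snoRNAs) inside their transcription units. They were chosen by name alone, as every gene symbol made of SNHG and a number together with GAS5, DANCR, ZFAS1, EPB41L4A-AS1 and TAF1D. This gave 32 genes of the 57905 in the count tables. The rule uses no measured value, but it was chosen with earlier results of these data known. SNHG4, which the rule also names, was not analysed here.

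The counts come from sequencing of polyadenylated RNA in 2 human neuroblastoma cell lines, 15 libraries in 5 groups of 3. IMR-32 is an adrenergic line known for amplified MYCN, a transcription factor of the MYC family. Its shEXOSC10 libraries carry an shRNA, active with 1 µg/ml doxycycline, against EXOSC10, a catalytic exoribonuclease of the nuclear RNA exosome. Its control libraries have neither doxycycline nor an active shRNA, and their count columns are named EtOH, taken here as the solvent. SHEP is a mesenchymal line without that amplification. Its libraries are labelled MYCNWT (wild type MYCN, 1 µg/ml doxycycline), MYCN3A (a triple mutant of MYCN described as unable to bind RNA, 1 µg/ml doxycycline) and noMYCN (no doxycycline). In each comparison with control or noMYCN libraries, doxycycline separates the same libraries as the shRNA or the transgene, so its effect and theirs cannot be told apart. MYCNWT and MYCN3A libraries both had it. Whether replicates came from separate cultures is not stated, and p-values then reflect only how much these libraries vary, which may be technical.

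Small nucleolar RNAs guide the chemical modification of ribosomal and spliceosomal RNA. Those of the box C/D family direct ribose methylation and those of the box H/ACA family pseudouridylation, while small Cajal body RNAs (scaRNAs) do the same for spliceosomal RNA. In human cells most are released from introns of a host transcript during splicing, and exonucleases, the nuclear exosome with EXOSC10 among them, trim their ends. Many hosts encode no protein of note. Their spliced RNA often begins with a run of pyrimidines, as ribosomal protein mRNAs do (the 5′ TOP motif, which ties translation to growth signals), and it is commonly translated over short frames and then removed by nonsense-mediated decay. GAS5 is the classic example, a host whose spliced RNA builds up when growth or translation stops.

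Start sequences were available in RefSeq (GRCh38.p14) for 28 of the 32 genes. SNHG6, SNHG9, SNHG15 and SNHG25 had no entry. A run of at least 5 pyrimidines (C or T) that begins with C at the annotated start was found in 7 of the 28, namely SNHG5, SNHG12, SNHG18, SNHG19, SNHG32, TAF1D and ZFAS1, or 25.0%. The same start was found in 60.3% of 78 promoters of cytosolic ribosomal proteins and in 4.07% of all 35116 promoter entries. The following lines show 20 bases before and 30 bases from the start of 5 of these genes, and of SNHG1 for comparison, 5′ to 3′ on the gene's strand. Capitals mark the pyrimidine run from the start. Positions are chr1:28581844-28581893 (minus strand) for SNHG12, chr6:85678704-85678753 (minus) for SNHG5, chr20:49278622-49278671 (plus) for ZFAS1, chr16:2155329-2155378 (minus) for SNHG19, chr6:31834896-31834945 (plus) for SNHG32 and chr11:62855856-62855905 (minus) for SNHG1.
SNHG12: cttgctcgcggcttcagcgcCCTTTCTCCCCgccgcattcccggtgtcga
SNHG5: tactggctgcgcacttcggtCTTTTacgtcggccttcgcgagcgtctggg
ZFAS1: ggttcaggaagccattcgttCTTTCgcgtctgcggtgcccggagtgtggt
SNHG19: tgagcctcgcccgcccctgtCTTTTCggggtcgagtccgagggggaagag
SNHG32: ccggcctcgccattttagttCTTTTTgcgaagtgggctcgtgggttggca
SNHG1: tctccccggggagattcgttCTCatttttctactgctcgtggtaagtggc
In SNHG12 the run was 11 bases long, and in SNHG1 a purine ended it after 3 bases. GAS5 had a run of 0 bases at its annotated start. An annotated start may differ from the start used in these cells.

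The letters CACGTG, the E-box core that MYC proteins bind as dimers with MAX, were searched in the 300 bases from 250 before to 50 after the start. This palindrome reads the same on both strands. It was found in SNHG7 and SNHG30, which is 2 of 28 genes or 7.14%, against 7.26% of all promoter entries. The SNHG7 sequence is shown because its RNA was higher in both MYCN groups of SHEP, as described further on. SNHG30 had no call there, averaging 5.57 CPM in MYCNWT, 7.87 CPM in MYCN3A and 6.72 CPM in noMYCN libraries. The SNHG7 sequence covers chr9:136728185-136728334 (minus strand), the 150 bases before the start, with the CACGTG in capitals.
SNHG7: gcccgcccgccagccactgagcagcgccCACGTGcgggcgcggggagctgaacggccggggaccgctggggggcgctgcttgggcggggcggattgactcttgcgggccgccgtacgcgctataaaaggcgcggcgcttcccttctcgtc

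In the hg19 coordinates of the count tables the 32 genes are spread over many chromosomes, from SNHG25 with 278 exonic bases to SNHG14 with 32477. SNHG14 is the long paternally expressed transcript of the imprinted Prader-Willi region at chr15:25223730-25664609 (plus strand), which runs antisense to UBE3A at its far end. SNHG1 lies at chr11:62619460-62623386 (minus strand), and its exon models cover 3792 of 3927 bases, so reads from its introns enter its count. GAS5 lies at chr1:173833038-173838020 (minus strand), with 3631 exonic bases of 4983. Retained introns and spliced RNA are therefore counted together in both genes.

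A snoRNA or scaRNA had its own gene row inside 20 of the 32 genes, 104 rows in all. Of these, 87 were box C/D snoRNAs, 72 of them in SNHG14, 15 were box H/ACA snoRNAs and 2 were scaRNAs. All but 10 lay in introns, and the 10 overlapped host exons in TAF1D (7), SNHG32 (2) and SNHG6 (1). Only rows with a matched SNORD, SNORA or SCARNA symbol were searched, so this list may be incomplete. The other 12 genes, GAS5, SNHG1, SNHG5 and SNHG29 among them, may hold snoRNAs too. Some hosts share exonic bases with another gene on their strand, and the SHEP counts give such reads to each. The share was 72.9% of SNHG21, 18.4% of SNHG20 (with SEC14L1), 11.2% of TAF1D (mostly with its own snoRNA rows), 10.8% of SNHG28, 6.26% of SNHG6 and 5.91% of SNHG32 (both with their own snoRNA rows), 5.92% of SNHG3 (with RCC1) and 5.36% of SNHG14 (SNRPN among others), and their values are less certain for that reason. TAF1D is the only one of the 5 genes added by name that is known for its protein, a subunit of the factor that recruits RNA polymerase I.

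The libraries held 16394148 to 26193478 counts in IMR-32 and 11638859 to 15353505 in SHEP. The host genes took 0.222% to 0.245% of the counts of an IMR-32 library and 0.322% to 0.411% of those of a SHEP library. EXOSC10 had 49.0, 46.7 and 46.1 CPM in shEXOSC10 libraries, against 74.6, 64.0 and 67.1 CPM in control libraries (CPM here is the count relative to a library size scaled by the trimmed mean of M values, TMM). The groups did not overlap, and the log2 fold change was -0.54 (SE 0.08, edgeR adjusted p = 2.27e-08). All adjusted p-values here come from the quasi-likelihood test of edgeR, corrected by Benjamini-Hochberg over every gene tested, and a gene is called when its adjusted p is under 0.05. MYCN went against its labels in SHEP. It had 2, 0 and 0 counts in the libraries labelled MYCNWT, 10, 0 and 0 in those labelled MYCN3A and 4, 0 and 0 in those labelled noMYCN, so these counts do not show the transgene and the SHEP groups rest on their labels alone. The adrenergic markers of IMR-32 summed to 1522 to 1567 TPM in shEXOSC10 libraries and 2433 to 2569 TPM in control libraries, and 6 of the 8 fell while 1 rose. Mesenchymal markers of SHEP summed to 3365 to 3532 TPM in MYCNWT, 2556 to 2675 TPM in MYCN3A and 2802 to 2960 TPM in noMYCN libraries. In IMR-32 the mesenchymal markers summed to 249 to 256 TPM in shEXOSC10 and 190 to 201 TPM in control libraries. In SHEP the adrenergic markers summed to 108 to 118 TPM in MYCNWT, 91.6 to 98.5 TPM in MYCN3A and 95.4 to 103 TPM in noMYCN libraries. Of these 8 markers, 4 were above 1 TPM in each SHEP group. Leukocyte markers summed to at most 22.0 TPM, epithelial markers to at most 1.75 and endothelial markers to at most 0.176 in any library, with CD3E or KRT19 at 0 in some groups. In bulk RNA, fewer cells of a kind and less RNA per cell cannot be told apart.

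In the libraries without doxycycline, the most abundant host by TPM (a scale corrected for gene length) was GAS5 in IMR-32 and SNHG29 in SHEP. GAS5 had 323, 376 and 376 TPM in IMR-32 control libraries, and 145, 157 and 148 TPM in SHEP noMYCN libraries. SNHG29, a host of box C/D snoRNAs formerly named as the antisense of LRRC75A, had 244, 245 and 254 TPM in IMR-32 and 1367, 1439 and 1457 TPM in SHEP. SNHG29 alone made up 30.6% to 35.8% of the TPM of all hosts in SHEP libraries. The next hosts in IMR-32 were SNHG29, SNHG1 with 226, 236 and 241 TPM and DANCR with 156, 169 and 170 TPM. In IMR-32 the ranges of GAS5, SNHG29, SNHG1 and DANCR did not overlap each other. In SHEP the order continued with SNHG5 (409 to 492 TPM), ZFAS1 (321 to 378 TPM), SNHG19 (325 to 405 TPM) and SNHG8 (301 to 348 TPM), and the ranges of ZFAS1, SNHG19 and SNHG8 all overlapped each other.

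**Figure D1:**
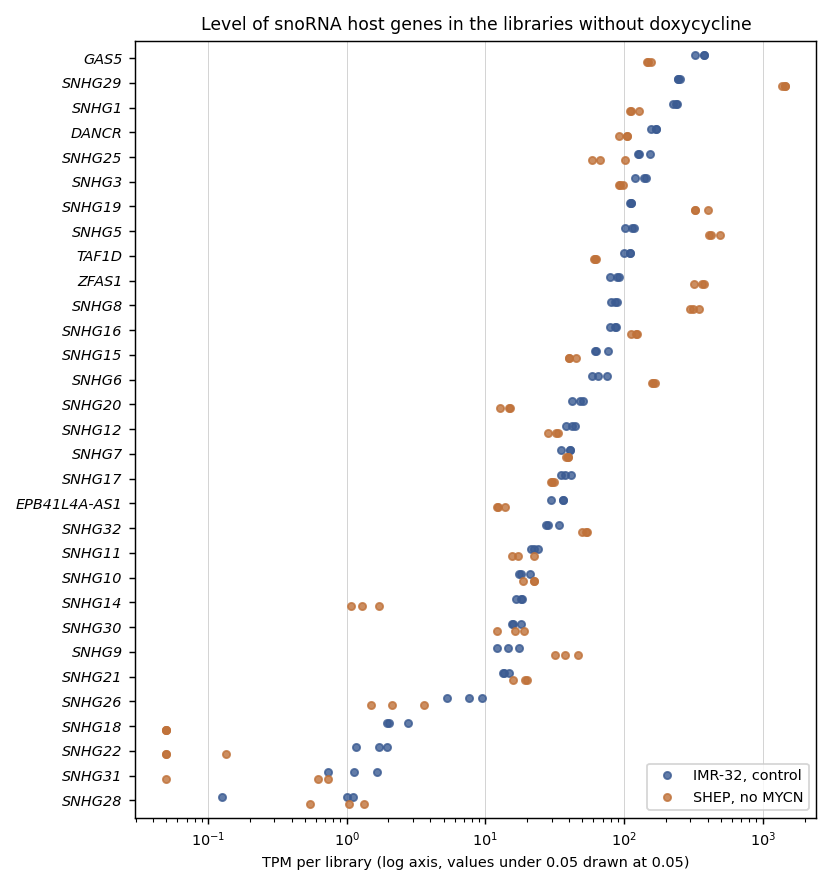
TPM of 31 snoRNA host genes (log axis), 1 point for each of 3 IMR-32 control libraries and 3 SHEP noMYCN libraries. Genes are drawn where any of these libraries reached 1 TPM, ordered by their mean in IMR-32. SNHG29, SNHG5, ZFAS1, SNHG8 and SNHG19 lie to the right in SHEP, and SNHG14 lies to the left of its IMR-32 points.

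Among hosts of at least 10 TPM in either line, SNHG14 had the largest ratio between them. SNHG14 had 16.7, 18.1 and 18.3 TPM in IMR-32 control libraries and 1.28, 1.71 and 1.08 TPM in SHEP noMYCN libraries, a ratio of 13 between the means. ZFAS1, the host of the SNORD12 family, was 4.10 times as abundant in SHEP as in IMR-32 by TPM. The ratio was 3.99 for SNHG5, 3.75 for SNHG8 and 3.16 for SNHG19. The tables were counted separately and the lines differ in every other respect, so these values were not tested.

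At the low end, SNHG27 had 0 counts in every IMR-32 library and was not tested in either line. SNHG18, SNHG22, SNHG28 and SNHG31 passed the filter on low counts in IMR-32 and not in SHEP. SNHG18 had 35, 25 and 24 counts in IMR-32 control libraries and 0 in all 9 SHEP libraries. The tests therefore cover 31 hosts in IMR-32 and 27 in SHEP.

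Of the 31 hosts tested, 11 were called in shEXOSC10 against control libraries, 3 higher and 8 lower, or 35.5%. Over all 17103 genes tested in IMR-32 the share called was 27.1%, with 13.5% higher and 13.7% lower. The median log2 fold change was -0.13 over the hosts and -0.00 over all genes. The hosts' median was -0.02 without control replicate 2 and -0.08 without shEXOSC10 replicate 2. Ranges of the groups did not overlap for 14 hosts, against 38.4% of all genes. The changes were small, from 10.6% lower for SNHG29 to 27.8% lower for SNHG5 among the falls.

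Among the hosts of box C/D snoRNAs, SNHG5, SNHG1, SNHG29 and SNHG32 fell. SNHG5, known as the host of the SNORD50 pair, had 54.2, 56.2 and 53.3 CPM in shEXOSC10 libraries, against 70.9, 80.4 and 75.3 CPM in control libraries. All depleted libraries were below all controls, and its means were 54.6 ± 1.51 and 75.5 ± 4.77 CPM (SD, n = 3 each). The log2 fold change was -0.47 (SE 0.07, edgeR adjusted p = 1.84e-07). SNHG1, first known as the host of U22, had 234, 225 and 227 CPM in shEXOSC10 libraries, against 271, 278 and 276 CPM in control libraries. Its groups did not overlap, and its log2 fold change was -0.26 (SE 0.05, edgeR adjusted p = 6.6e-06). SNHG29 had 259, 265 and 249 CPM in shEXOSC10 libraries, against 290, 286 and 288 CPM in control libraries (log2 fold change -0.16, SE 0.05, edgeR adjusted p = 0.00544). This call was lost without shEXOSC10 replicate 3 (adjusted p = 0.0625). SNHG32, whose rows include SNORD48 and SNORD52, averaged 12.3 ± 2.87 CPM in shEXOSC10 libraries and 16.6 ± 2.18 CPM in control libraries (SD, n = 3 each). Its edgeR adjusted p of 0.0128 became 0.251 without shEXOSC10 replicate 3 and 0.116 without control replicate 2. Without shEXOSC10 replicate 3 the count of hosts called lower was 5 in place of 8.

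Of the 7 hosts with a box H/ACA row, SNHG3, EPB41L4A-AS1 and DANCR fell, TAF1D rose, and SNHG11, SNHG17 and SNHG31 had no call. SNHG17 was called higher with library totals (edgeR adjusted p = 0.0497) and without control replicate 2 (0.0361). SNHG8, known as a host of the same family, fell too. SNHG3, which carries SNORA73B, known for its role in cutting the rRNA precursor on the way to 18S rRNA, had 134, 140 and 134 CPM in shEXOSC10 libraries, against 156, 184 and 172 CPM in control libraries. No depleted library reached the lowest control, and the log2 fold change was -0.33 (SE 0.06, edgeR adjusted p = 3.02e-06). EPB41L4A-AS1, host of SNORA13, had 23.2, 25.8 and 27.2 CPM in shEXOSC10 libraries, against 31.3, 37.8 and 36.4 CPM in control libraries (log2 fold change -0.47, SE 0.10, edgeR adjusted p = 1.04e-04). SNHG8 had 18.8, 15.9 and 18.3 CPM in shEXOSC10 libraries, against 23.5, 25.7 and 23.8 CPM in control libraries (log2 fold change -0.46, SE 0.11, edgeR adjusted p = 7.89e-04). In both genes all depleted libraries lay below all controls. DANCR, host of SNORA26 and named for its block of cell differentiation, had 70.9, 75.3 and 73.3 CPM in shEXOSC10 libraries, against 79.5, 85.1 and 83.0 CPM in control libraries. Its groups did not overlap, but its edgeR adjusted p of 0.041 was lost when shEXOSC10 replicate 1, 2 or 3 or control replicate 2 or 3 was left out (from 0.0538 to 0.1503).

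SNHG14, TAF1D and SNHG12 rose. SNHG14 had 226, 216 and 237 CPM in shEXOSC10 libraries, against 172, 183 and 179 CPM in control libraries. The groups were apart, and the log2 fold change was 0.35 (SE 0.05, edgeR adjusted p = 7.53e-08). TAF1D had 327, 323 and 317 CPM in shEXOSC10 libraries, against 267, 291 and 281 CPM in control libraries (log2 fold change 0.20, SE 0.05, edgeR adjusted p = 3.32e-04). SNHG12, host of SNORD99, had 52.6, 50.9 and 53.2 CPM in shEXOSC10 libraries, against 40.8, 46.4 and 42.8 CPM in control libraries (log2 fold change 0.27, SE 0.08, edgeR adjusted p = 0.00683). All depleted libraries of these genes lay above all controls.

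GAS5, the most abundant host, had 429, 444 and 403 CPM in shEXOSC10 libraries, against 371, 426 and 412 CPM in control libraries. Its groups overlapped, and the log2 fold change was 0.08 (SE 0.05, edgeR adjusted p = 0.23). ZFAS1 had 27.9, 23.8 and 26.1 CPM in shEXOSC10 libraries, against 27.5, 30.4 and 30.3 CPM in control libraries, also overlapping (log2 fold change -0.18, SE 0.10, edgeR adjusted p = 0.19). The other 18 hosts without a call had log2 fold changes from -0.83 to 0.42, the ends of that range being SNHG28, at most 0.875 CPM, and SNHG18, at most 2.48 CPM.

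**Figure D2:**
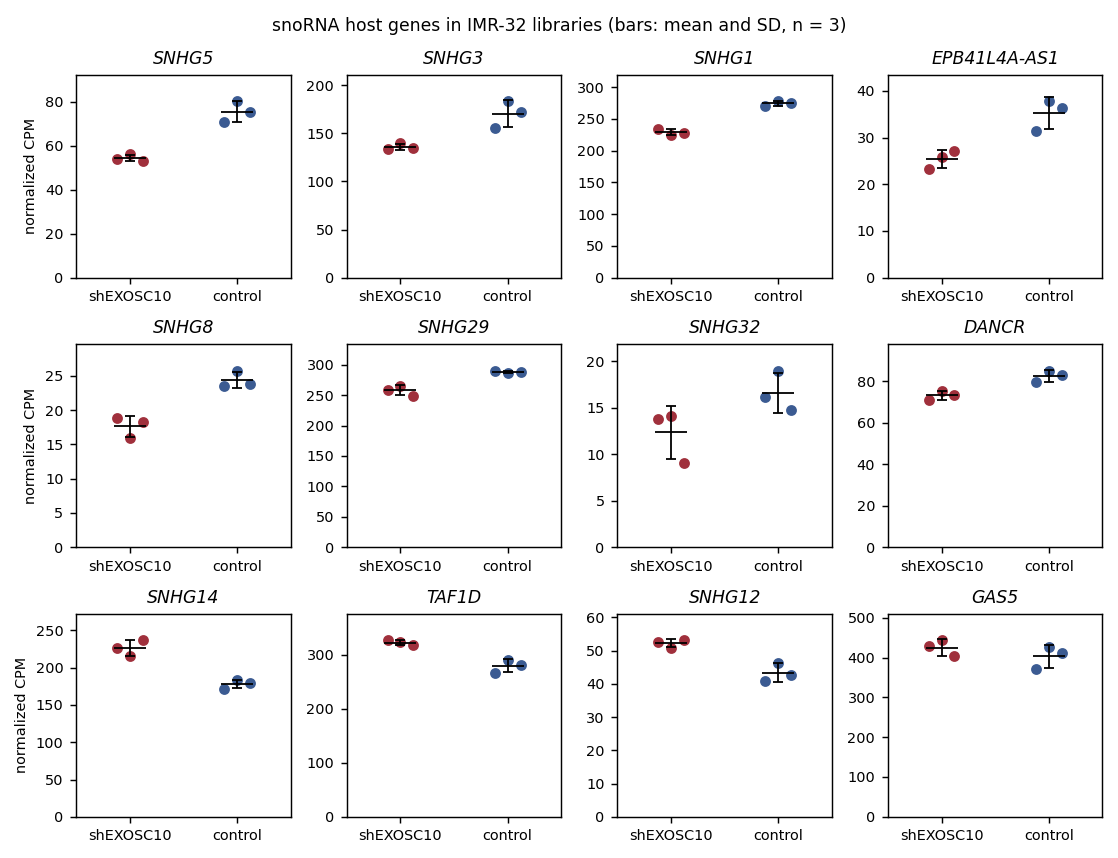
Normalized CPM of 12 snoRNA host genes in IMR-32, shEXOSC10 libraries left and control libraries right, with the mean and SD of 3 libraries. SNHG14, TAF1D and SNHG12 lie higher in the depleted libraries, GAS5 overlaps, and the other 8 lie lower.

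In the SHEP libraries labelled MYCNWT, 5 of 27 hosts were higher than in those labelled noMYCN and none was lower. That share of 18.5% stands beside 22.2% of all 14923 genes tested, with 10.9% higher and 11.3% lower. By unadjusted p under 0.05, 6 hosts changed. DESeq2 called none lower either. The median log2 fold change was 0.05 over the hosts and -0.00 over all genes. The hosts' median had no firm sign: it ran from -0.01 (without MYCNWT replicate 3) to 0.15 (without MYCNWT replicate 1) when 1 library was left out, each such removal moving it by over 1.5 times, and was -0.03 with library totals. Ranges did not overlap for 6 hosts, against 37.5% of all genes.

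SNHG1 rose most clearly. It had 190, 208 and 195 CPM in MYCNWT libraries, against 135, 161 and 138 CPM in noMYCN libraries. The groups did not overlap, and the log2 fold change was 0.45 (SE 0.09, edgeR adjusted p = 5.91e-04). SNHG7 had 64.1, 77.3 and 80.6 CPM in MYCNWT libraries, against 54.5, 54.3 and 57.3 CPM in noMYCN libraries (log2 fold change 0.42, SE 0.11, edgeR adjusted p = 0.00579). SNHG12 had 41.3, 47.6 and 49.4 CPM in MYCNWT libraries, against 30.6, 36.0 and 37.4 CPM in noMYCN libraries (log2 fold change 0.41, SE 0.11, edgeR adjusted p = 0.010). Both genes had separate groups, and the call of SNHG12 was lost without noMYCN replicate 1 (0.0768). SNHG15 averaged 62.1 ± 7.21 CPM in MYCNWT libraries and 49.9 ± 4.39 CPM in noMYCN libraries (SD, n = 3 each), with overlapping ranges and an edgeR adjusted p of 0.0322. SNHG17, which carries the SNORA71 family, averaged 52.4 ± 4.96 CPM in MYCNWT libraries and 41.7 ± 1.82 CPM in noMYCN libraries (SD, n = 3 each), with an edgeR adjusted p of 0.0414. The calls of SNHG15 and SNHG17 were each lost without noMYCN replicate 1 or 2 or MYCNWT replicate 3, that of SNHG15 also without MYCNWT replicate 2 and that of SNHG17 also without noMYCN replicate 3 (adjusted p = 0.0650 to 0.169). Hosts called higher numbered 2 without noMYCN replicate 1, 3 without noMYCN replicate 2 and 3 without MYCNWT replicate 3.

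In the libraries labelled MYCN3A, 11 of 27 hosts were higher than in noMYCN libraries and none was lower. The share called was 40.7%, beside 25.5% of all genes, with 12.7% higher and 12.8% lower. By unadjusted p under 0.05, 15 hosts changed, and DESeq2 called none lower. The median log2 fold change was 0.27 over the hosts and -0.04 over all genes. Ranges did not overlap for 15 hosts, against 41.3% of all genes. Scaling by library totals in place of TMM moved the median of all genes to -0.14, that of the hosts to 0.17 and the number of hosts called higher to 5.

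SNHG15 had the clearest rise, with 84.4, 89.4 and 80.6 CPM in MYCN3A libraries, against 46.7, 48.2 and 54.9 CPM in noMYCN libraries. Every MYCN3A library was above every noMYCN library, and the log2 fold change was 0.76 (SE 0.10, edgeR adjusted p = 3.12e-05). SNHG7 had 77.2, 95.8 and 79.0 CPM in MYCN3A libraries, against 54.5, 54.3 and 57.3 CPM in noMYCN libraries (log2 fold change 0.60, SE 0.11, edgeR adjusted p = 3.6e-04). SNHG16, host of SNORD1B, had 265, 264 and 287 CPM in MYCN3A libraries, against 190, 216 and 221 CPM in noMYCN libraries (log2 fold change 0.38, SE 0.08, edgeR adjusted p = 0.00191). SNHG5 had 396, 461 and 467 CPM in MYCN3A libraries, against 297, 298 and 360 CPM in noMYCN libraries (log2 fold change 0.47, SE 0.11, edgeR adjusted p = 0.00242). None of these 4 genes had overlapping groups, and all 4 kept a call in every alternative run.

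The remaining rises were less firm. SNHG8 had 113, 136 and 134 CPM in MYCN3A libraries, against 91.7, 91.7 and 106 CPM in noMYCN libraries, without overlap (log2 fold change 0.41, SE 0.11, edgeR adjusted p = 0.0103). SNHG6, which overlaps SNORD87, had 82.1, 85.4 and 84.3 CPM in MYCN3A libraries, against 64.5, 69.0 and 65.3 CPM in noMYCN libraries (log2 fold change 0.34, SE 0.10, edgeR adjusted p = 0.011). SNHG17 had 45.2, 59.7 and 58.8 CPM in MYCN3A libraries, against 40.2, 41.2 and 43.7 CPM in noMYCN libraries (log2 fold change 0.39, SE 0.12, edgeR adjusted p = 0.0168). EPB41L4A-AS1 had 18.3, 20.1 and 18.3 CPM in MYCN3A libraries, against 13.2, 13.4 and 15.3 CPM in noMYCN libraries (log2 fold change 0.44, SE 0.15, edgeR adjusted p = 0.032). SNHG10, SNHG11 and SNHG25 had edgeR adjusted p of 0.041, 0.0325 and 0.0485, and the ranges of SNHG11 and SNHG25 overlapped. Each of these 7 calls was lost without noMYCN replicate 1 (adjusted p = 0.0540 to 0.177). Leaving out MYCN3A replicate 2 ended the calls of SNHG8, SNHG17, EPB41L4A-AS1, SNHG10, SNHG11 and SNHG25 (0.0567 to 0.218). The same 6 calls were lost without noMYCN replicate 2 (0.0562 to 0.198). Without MYCN3A replicate 3 those of SNHG17, EPB41L4A-AS1, SNHG11 and SNHG25 were lost (0.0576 to 0.126), and that of SNHG10 also without MYCN3A replicate 1 (0.181) or noMYCN replicate 3 (0.0548). Hosts called higher numbered 4 without noMYCN replicate 1, 5 without noMYCN replicate 2, 5 without MYCN3A replicate 2 and 7 without MYCN3A replicate 3.

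SNHG1, which was higher in MYCNWT libraries, had 151, 142 and 132 CPM in MYCN3A libraries, against 135, 161 and 138 CPM in noMYCN libraries, with overlapping groups (log2 fold change -0.03, SE 0.09, edgeR adjusted p = 0.82). GAS5 had 176, 180.5 and 165 CPM in MYCN3A libraries, 153, 173 and 169 CPM in MYCNWT libraries and 168, 188 and 178 CPM in noMYCN libraries. All pairs of these groups overlapped, with edgeR adjusted p of 0.80 for MYCN3A and 0.38 for MYCNWT against noMYCN. DANCR had 45.1, 59.8 and 50.6 CPM in MYCNWT libraries, 54.7, 47.6 and 59.4 CPM in MYCN3A libraries and 47.4, 56.3 and 56.6 CPM in noMYCN libraries, with log2 fold changes of -0.06 to 0.01 and no call in any SHEP comparison. TAF1D had 190.5, 196 and 191 CPM in MYCNWT libraries, 183, 188 and 183 CPM in MYCN3A libraries and 164, 174 and 172 CPM in noMYCN libraries. Both forms lay above noMYCN without overlap, but edgeR did not call TAF1D (log2 fold changes 0.18 and 0.12, edgeR adjusted p = 0.088 and 0.26). DESeq2 called it higher with MYCNWT (adjusted p = 0.0425). ZFAS1 had 105, 131 and 160 CPM in MYCNWT libraries, 145, 149.5 and 164 CPM in MYCN3A libraries and 128, 116 and 138 CPM in noMYCN libraries. Its MYCN3A libraries were above all noMYCN libraries, with a change of 0.26 on the log2 scale and no call (SE 0.11, edgeR adjusted p = 0.088). It was called with no filter on low counts (edgeR adjusted p = 0.0444) and with these groups fitted alone (0.0160). Its MYCNWT libraries spanned the noMYCN range and overlapped the MYCN3A range. Both MYCN groups are set against the same noMYCN libraries, so their 2 sets of values are not independent.

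SNHG14, which rose on EXOSC10 depletion in IMR-32, had 16.7, 12.04 and 10.4 CPM in MYCNWT libraries, 11.5, 11.3 and 8.36 CPM in MYCN3A libraries and 13.3, 18.4 and 11.7 CPM in noMYCN libraries. MYCN3A lay below noMYCN without overlap, again without a call (log2 fold change -0.48, SE 0.20, edgeR adjusted p = 0.083), though it was called with library totals (0.0470) and without noMYCN replicate 3 (0.0466). EPB41L4A-AS1, higher with MYCN3A, had 13.9, 16.8 and 18.4 CPM in MYCNWT libraries, which overlapped the noMYCN range (log2 fold change 0.23, SE 0.15, edgeR adjusted p = 0.30).

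**Figure D3:**
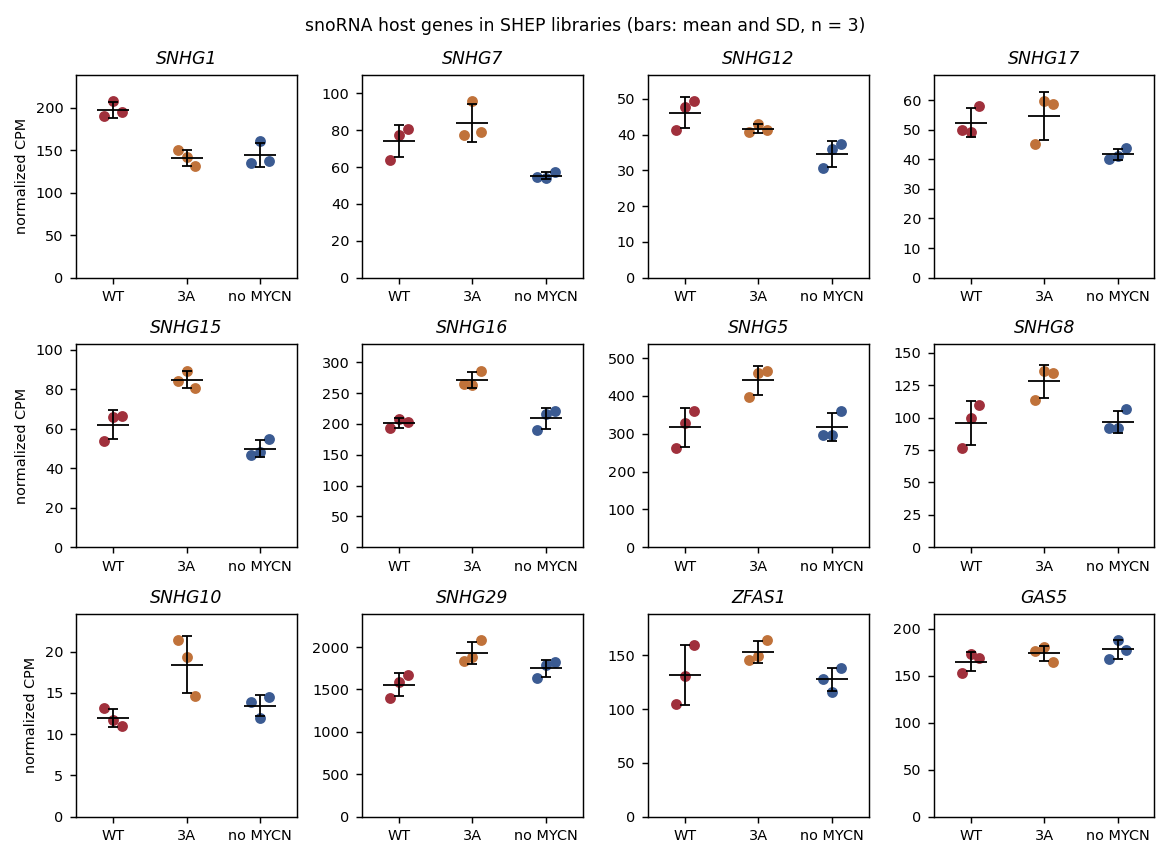
Normalized CPM of 12 snoRNA host genes in SHEP libraries labelled MYCNWT, MYCN3A and noMYCN, with the mean and SD of 3 libraries. SNHG1 lies highest in the MYCNWT libraries, SNHG15, SNHG16, SNHG5 and SNHG8 lie highest in the MYCN3A libraries, and GAS5 overlaps across all groups.

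The direct comparison of the MYCN forms called 11 of 27 hosts, 2 higher and 9 lower in MYCNWT than in MYCN3A libraries, or 40.7%. Of all genes, 30.3% were called, 15.8% higher and 14.5% lower. The hosts' median log2 fold change was -0.21 and that of all genes 0.00, and without MYCNWT replicate 1 the hosts' median was -0.11. Ranges did not overlap for 13 hosts, against 40.4% of all genes.

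SNHG1 was the host that was higher with MYCNWT, at 190, 208 and 195 CPM in MYCNWT libraries, against 151, 142 and 132 CPM in MYCN3A libraries. The groups did not overlap, and the log2 fold change was 0.48 (SE 0.09, edgeR adjusted p = 2.55e-04). SNHG3 was the other, with 125, 147 and 151 CPM in MYCNWT libraries, against 115, 127 and 116 CPM in MYCN3A libraries (log2 fold change 0.24, SE 0.09, edgeR adjusted p = 0.0412). Its ranges overlapped and its call was lost without MYCNWT replicate 2 or 3 or MYCN3A replicate 1 or 3 (0.102 to 0.153), leaving SNHG1 as the only host called higher.

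Lower in MYCNWT than in MYCN3A libraries were SNHG16, SNHG5, SNHG15, SNHG25, SNHG10, SNHG8, SNHG29, SNHG19 and SNHG20. SNHG16 had 193, 209 and 203 CPM in MYCNWT libraries, against 265, 264 and 287 CPM in MYCN3A libraries (log2 fold change -0.43, SE 0.08, edgeR adjusted p = 4.07e-04). SNHG5 had 261, 329 and 360 CPM in MYCNWT libraries, against 396, 461 and 467 CPM in MYCN3A libraries (log2 fold change -0.48, SE 0.11, edgeR adjusted p = 0.00156). SNHG15 had 53.8, 66.1 and 66.4 CPM in MYCNWT libraries, against 84.4, 89.4 and 80.6 CPM in MYCN3A libraries (log2 fold change -0.45, SE 0.10, edgeR adjusted p = 0.00214). None of the 3 had overlapping groups, and MYCNWT replicate 1 was the lowest library of each.

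Among the called hosts, the largest fold between the forms was that of SNHG25, a short host of SNORD104. It had 4.42, 4.80 and 7.13 CPM in MYCNWT libraries, against 8.58, 13.01 and 10.5 CPM in MYCN3A libraries (log2 fold change -0.97, SE 0.24, edgeR adjusted p = 0.00359). SNHG10, host of SCARNA13, had 13.1, 11.8 and 10.9 CPM in MYCNWT libraries, against 21.4, 19.3 and 14.6 CPM in MYCN3A libraries (log2 fold change -0.63, SE 0.16, edgeR adjusted p = 0.00545). SNHG29 had 1403, 1592 and 1668 CPM in MYCNWT libraries, against 1833, 1885 and 2082 CPM in MYCN3A libraries (log2 fold change -0.31, SE 0.09, edgeR adjusted p = 0.00845). The groups of these genes were apart. SNHG8, also without overlap, had 76.7, 99.8 and 110 CPM in MYCNWT libraries, against 113, 136 and 134 CPM in MYCN3A libraries (log2 fold change -0.42, SE 0.11, edgeR adjusted p = 0.00639). SNHG19 and SNHG20 had edgeR adjusted p of 0.0369 and 0.0486. SNHG19 lost its call without MYCNWT replicate 1 or 2 or MYCN3A replicate 1 or 3 and SNHG20 without any MYCN3A replicate or MYCNWT replicate 1 or 2 (0.0639 to 0.218).

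**Figure D4:**
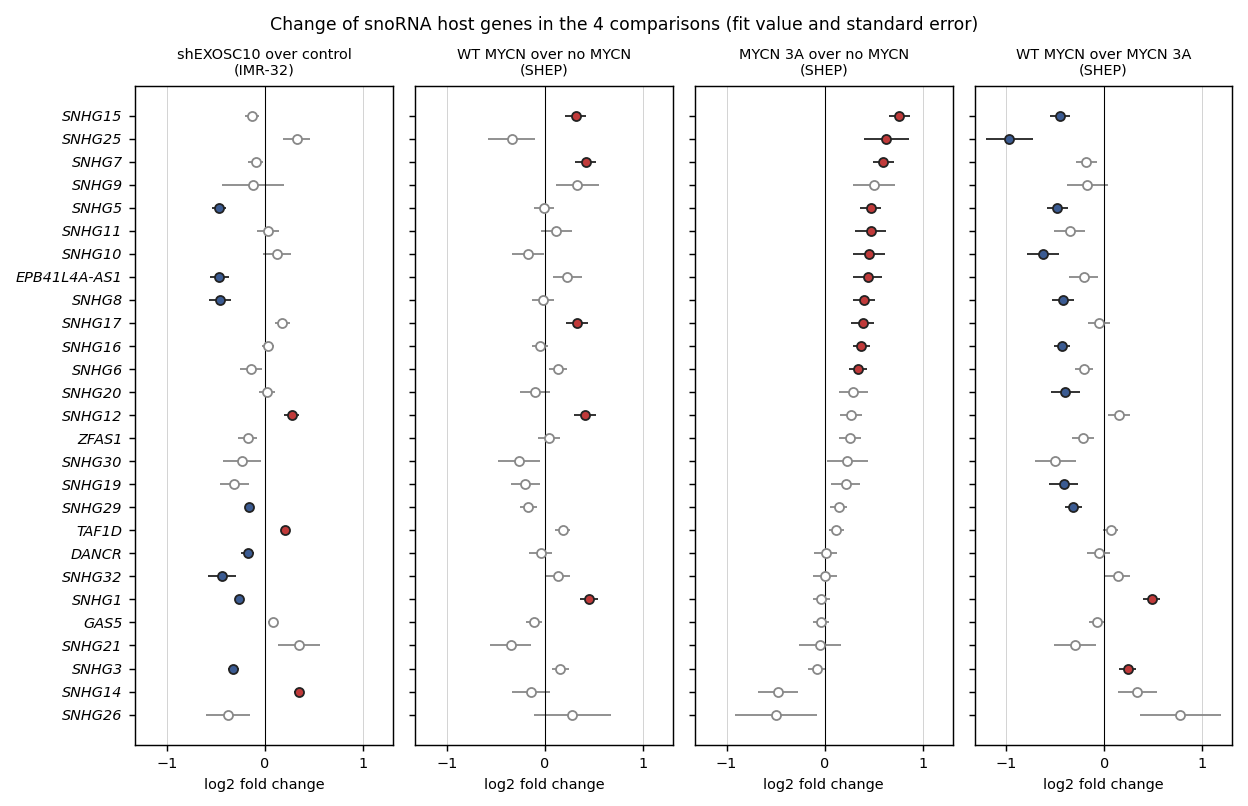
Log2 fold change with its standard error for the 27 snoRNA host genes tested in both lines, 1 panel for each comparison, ordered by the change in MYCN3A. Red points are called higher, blue points lower and open points not called at an adjusted p of 0.05. In the MYCN3A panel 11 points are red and none is blue, and in the panel of MYCNWT over MYCN3A 9 are blue.

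Cytosolic ribosomal protein genes were counted beside the hosts. The pyrimidine start was found in 60.3% of their promoters and in 25.0% of the host promoters available. On EXOSC10 depletion 74 of 79 fell and none rose (median log2 fold change -0.31), beside 13.7% of all genes called lower. In MYCN3A libraries 67 of 79 rose and none fell (median 0.42), beside 12.7% of all genes called higher. Of the 79, 10 rose and 1 fell in MYCNWT libraries (median 0.14). The rises lie near the share over all genes, of which 10.9% were called higher and 11.3% lower. This count of 10 was 3 without noMYCN replicate 1, MYCNWT replicate 2 or MYCNWT replicate 3, 4 without noMYCN replicate 2, 6 with library totals and 42 without MYCNWT replicate 1. MYCNWT replicate 1 had 6.77% of its counts in ribosomal protein genes, against 7.83% and 8.49% in the other MYCNWT libraries, and the hosts took 0.322% of its counts, the lowest share of any SHEP library. Between the forms 0 were higher and 37 lower in MYCNWT (median -0.25), beside 15.8% and 14.5% of all genes. Without MYCNWT replicate 3, 57 were lower. Of the 7 hosts with a pyrimidine start, SNHG5 and SNHG32 fell and TAF1D and SNHG12 rose on EXOSC10 depletion, beside 27.1% of all genes called. SNHG18, 1 of the 7, was not tested in SHEP. There SNHG5 rose with MYCN3A and SNHG12 rose with MYCNWT, beside 25.5% and 22.2% of all genes called. SNHG5 and SNHG19 were lower in MYCNWT than in MYCN3A libraries, beside 30.3% of all genes called. Other settings added ZFAS1 with MYCN3A and TAF1D with MYCNWT, as given above. Whether this start plays a part in any change was not tested.

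Other genes that hold a snoRNA row and are neither hosts of the list nor ribosomal protein genes numbered 146 tested in IMR-32 and 142 in SHEP. On EXOSC10 depletion 16 rose and 37 fell (36.3%, beside 27.1% of all genes, median -0.04). With MYCN3A 33 rose and 19 fell (36.6%, beside 25.5%, median -0.03), and with MYCNWT 29 rose and 11 fell (28.2%, beside 22.2%, median 0.10).

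Of the 8 core proteins that bind snoRNAs, 8 rose with MYCN3A and 5 with MYCNWT, beside 12.7% and 10.9% of all genes called higher. Of the 4 core proteins of box C/D particles, FBL, NOP56, NOP58 and SNU13, all 4 rose with MYCN3A, and FBL and NOP58 rose with MYCNWT. FBL, the methyltransferase, averaged 600 CPM in MYCN3A, 530 CPM in MYCNWT and 359 CPM in noMYCN libraries, with log2 fold changes of 0.74 (SE 0.10, edgeR adjusted p = 3.0e-05) and 0.56 (SE 0.10, edgeR adjusted p = 2.5e-04) for the 2 forms. Of the 4 core proteins of box H/ACA particles, all 4 rose with MYCN3A, and GAR1, DKC1 (the pseudouridine synthase) and NOP10 rose with MYCNWT. Between the forms NOP56 and NHP2 were lower in MYCNWT (log2 fold changes -0.37 and -0.38, edgeR adjusted p = 0.0018 and 0.0031), beside 14.5% of all genes called lower. On EXOSC10 depletion FBL and NHP2 fell (log2 fold changes -0.28 and -0.26, edgeR adjusted p = 6.1e-05 and 0.0041), and the other 6 core genes had no call. These 2 of 8 lie near the 27.1% of all genes called there.

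Of 10 assembly factors, which load these particles, 1 rose and 3 fell on EXOSC10 depletion, with NOLC1 and RUVBL1 among the falls (40.0% called, beside 27.1% of all genes). With MYCNWT 2 of the 10 rose (22.2% of all genes were called) and with MYCN3A 6 rose (60.0%, beside 25.5%), NOLC1 and RUVBL1 in both cases, and none fell. Of 20 exosome subunits and other factors that trim snoRNA ends, 1 rose and 3 fell on EXOSC10 depletion, the target EXOSC10 included, a share below the 27.1% of all genes. With MYCNWT 6 of the 20 rose, beside 22.2% of all genes called. With MYCN3A 9 rose and 2 fell (55.0%, beside 25.5%), and EXOSC10 itself was 1 of the 2, at 62.6, 57.1 and 64.9 CPM in MYCN3A libraries, against 90.1, 83.7 and 69.5 CPM in noMYCN libraries (log2 fold change -0.40, SE 0.11, edgeR adjusted p = 0.00954). That call was lost without noMYCN replicate 1 (0.0787) or MYCN3A replicate 2 (0.0565).

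Of 12 factors of nonsense-mediated decay, the route that removes many spliced host RNAs, 3 rose, UPF1 and UPF3A among them, and 1 fell on EXOSC10 depletion (33.3% called, beside 27.1% of all genes). With MYCNWT 3 rose and 1 fell (33.3%, beside 22.2%), and with MYCN3A 1 rose and 1 fell (16.7%, beside 25.5%). Such counts of 2 to 4 genes lie near the shares over all genes. Between the forms 5 were higher in MYCNWT and none was lower (41.7%, beside 30.3%). UPF1, the helicase of the pathway, averaged 165 CPM in MYCNWT and 120 CPM in MYCN3A libraries, and the log2 fold change was 0.46 (SE 0.09, edgeR adjusted p = 7.3e-04).

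Mature snoRNAs lack a poly(A) tail, and the nested snoRNA rows were thinly covered in these polyadenylated libraries. Any count was found for 55 of the 104 nested rows in IMR-32 and 34 in SHEP, and 21 and 14 passed the filter. On EXOSC10 depletion SNORD104 and SNORA73B alone were called among the 21 rows tested, beside 27.1% of all genes. SNORD104, inside SNHG25, had 17.9, 13.97 and 18.8 CPM in shEXOSC10 libraries, against 12.1, 14.3 and 13.99 CPM in control libraries, an overlap (log2 fold change 0.33, SE 0.13, edgeR adjusted p = 0.0469). Its host SNHG25 was called higher only with library totals (edgeR adjusted p = 0.0480) and without control replicate 3 (0.0490). SNORA73B, inside SNHG3, had 3.87, 3.93 and 3.53 CPM in shEXOSC10 libraries, against 4.57, 6.52 and 6.71 CPM in control libraries (log2 fold change -0.66, SE 0.22, edgeR adjusted p = 0.0213). None of the 14 rows tested was called by edgeR in any SHEP comparison, with 1, 0 and 1 under an unadjusted p of 0.05 for MYCNWT against noMYCN, MYCN3A against noMYCN and MYCNWT against MYCN3A. Reads on such rows may come from unspliced host RNA, which was not tested.

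Within 1000 bases of the start of 10 hosts, a gene on the other strand runs away from it. SNHG1 and SLC3A2, the heavy chain of amino acid transporters such as the one built with SLC7A5, start 132 bases apart in the hg19 models and 224 bases apart in RefSeq on GRCh38.p14. The bases between these RefSeq starts, and the first 10 of SNHG1 in capitals, are shown because both genes were called in the same direction in 3 of the 4 comparisons. They span chr11:62855876-62856108 and are written on the strand of SNHG1 (minus), so SLC3A2 starts just before the left end.
SNHG1: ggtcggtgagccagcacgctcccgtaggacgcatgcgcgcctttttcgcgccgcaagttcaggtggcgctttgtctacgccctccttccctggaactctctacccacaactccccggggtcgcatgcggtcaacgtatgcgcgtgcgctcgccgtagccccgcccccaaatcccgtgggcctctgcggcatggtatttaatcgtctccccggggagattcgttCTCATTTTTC
No CACGTG was found in the 300-base window of SNHG1.

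SLC3A2 had 224, 226 and 235 CPM in shEXOSC10 libraries, against 425, 395 and 422 CPM in control libraries (log2 fold change -0.86, SE 0.05, edgeR adjusted p = 1.1e-25). It had 296, 323 and 350 CPM in MYCNWT libraries, 251, 286 and 284 CPM in MYCN3A libraries and 172, 195 and 216 CPM in noMYCN libraries. MYCNWT and MYCN3A libraries were all above the noMYCN libraries, with log2 fold changes of 0.73 (SE 0.09, edgeR adjusted p = 3.7e-06) and 0.49 (SE 0.09, edgeR adjusted p = 5.5e-04). SNHG1 and SLC3A2 thus fell together on EXOSC10 depletion and rose together with MYCNWT, while with MYCN3A SLC3A2 rose and SNHG1 had no call. Between the forms SLC3A2 was higher in MYCNWT by a log2 fold change of 0.24 with an edgeR adjusted p of 0.04999, just under the threshold.

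**Figure D5:**
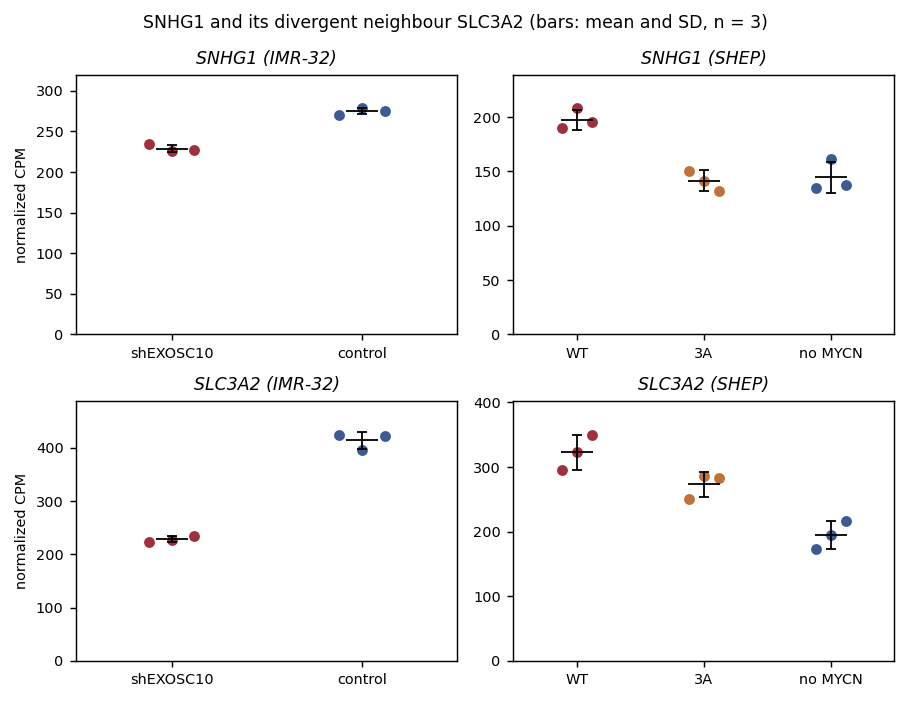
Normalized CPM of SNHG1 (top) and SLC3A2 (bottom) in IMR-32 (left) and SHEP (right), with the mean and SD of 3 libraries. Both genes lie lower in shEXOSC10 than in control libraries and highest in MYCNWT libraries, and in MYCN3A libraries SLC3A2 alone lies above noMYCN.

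The partners of other hosts gave few shared calls. RPS2, a ribosomal protein gene that starts 99 bases from SNHG9, fell on EXOSC10 depletion (log2 fold change -0.35, edgeR adjusted p = 1.4e-11) and rose with MYCN3A (0.33, edgeR adjusted p = 0.012). SNHG9 itself, at 2 to 3 CPM in IMR-32 and 5.58 to 12.1 CPM in SHEP, had no call in the main fits. It was called higher with MYCN3A without noMYCN replicate 3 (log2 fold change 0.68, edgeR adjusted p = 0.0495). ZNFX1, which faces ZFAS1, ZBTB37, which faces GAS5, and MED17, which faces TAF1D, were not called in any comparison. TRAF7, which faces SNHG19, was higher in MYCNWT than in MYCN3A libraries (log2 fold change 0.33, edgeR adjusted p = 0.007), while SNHG19 was lower. SEMA5A, beside SNHG18, rose on EXOSC10 depletion (log2 fold change 0.43, edgeR adjusted p = 0.003), and ACAA2, beside SNHG22, fell (log2 fold change -0.23, edgeR adjusted p = 0.0081), while both hosts stayed near 1 to 2 CPM without a call.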

How the data were processed

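Of the 89 samples of the series, the 15 RNA-seq samples were used, and the other 74 were not analysed here. The deposited values are raw counts per gene from 2 tables. Per the submitters' processing notes, reads were mapped with STAR 2.7.10a to hg19 and counted with featureCounts 2.0.3. Per the file headers, the SHEP counts used Ensembl release 87, strand setting 2, a minimum overlap of 10 bases and pairs with both ends mapped, and gave reads over several genes to each. No settings are given in the table of IMR-32. Even values made up 65.5% to 77.1% of counts from 1 to 10, so read ends appear to be counted singly and the counts are not independent molecules. The cell lines were tabulated apart, so levels set across them were not tested. Symbols came from a table of gene IDs, which matched 51996 of 57905 (89.8%).

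Genes passing filterByExpr (17103 in IMR-32, 14923 in SHEP) were scaled with TMM and tested with edgeR 4.0.16 (R 4.3.3, limma 3.58.1) by its robust quasi-likelihood F test, with Benjamini-Hochberg adjustment over all genes tested and a threshold of 0.05. IMR-32 and SHEP had a fit each, the latter with all 9 libraries. Biological coefficients of variation were 0.077 (IMR-32) and 0.108 (SHEP). Alternatives were DESeq2 1.42.0, library totals, no filter, a fit without robust weights, the groups compared alone, the replicate number as a block, and each library left out. Pairs of replicates differed beyond sampling noise (chi-square per degree of freedom 3.96 to 17.9), so none was counted as a duplicate. CPM and TPM were computed from the deposited counts. Per-library values are given for GAS5, DANCR, ZFAS1, EPB41L4A-AS1, TAF1D and up to 8 called hosts of smallest p in a comparison, for EXOSC10, MYCN and neighbouring divergent genes, and up to 3 called genes are named from each list. Hosts and lists were chosen with earlier results of these data known.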

Additional observations from a re-analysis of the deposited data

How the results depend on the processing

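Over 4 comparisons and all alternatives, host by host, 1217 of 1313 values kept their side of the threshold, 72 lost a call, 24 gained one and 0 reversed a called direction. The 1217 include hosts with a call in neither run, whatever their sign. With MYCN3A against noMYCN, 33 of 324 values lost a call. On EXOSC10 depletion the hosts called higher numbered 3, 5 with library totals and 3 to 4 with a library left out, and those lower 8 and 5 to 8. With MYCNWT the hosts higher numbered 5, 3 with library totals and 2 to 6 with a library left out. Those lower numbered 0, 1 with library totals and 0 to 1 with a library left out. With MYCN3A the hosts higher numbered 11, 5 with library totals and 4 to 11 with a library left out, and those lower 0, 1 with library totals and 0 to 1. Between the forms the hosts higher in MYCNWT numbered 2, and 1 with no filter, with the 2 groups alone and in 4 of 6 leave-outs (1 to 2). ZFAS1 and SNHG6 were also called lower in MYCNWT without MYCNWT replicate 3 (edgeR adjusted p = 0.00646 and 0.0335). The replicate block did the same for ZFAS1, SNHG6 and SNHG11 (0.0317, 0.0474 and 0.0467). SNHG20 also lost its call with library totals, no filter or the 2 groups alone (0.0665 to 0.0973). Libraries left out also leave fewer libraries for the test, and the cause of each change was not tested otherwise.

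The main fits did not pair the samples by replicate number. Deviations of same-numbered libraries correlated at -0.03 to 0.14, and those of differently numbered libraries at -0.13 to 0.06. In IMR-32 these ranges were 0.03 to 0.04 and -0.03 to -0.01. Whether the numbers mark a pairing was not tested. With the replicate block, 1 host was lower with MYCNWT (SNHG29) and 1 with MYCN3A (SNHG14), ZFAS1 and SNHG12 were also called higher with MYCN3A (adjusted p = 0.0167 and 0.0353) and TAF1D with MYCNWT (0.0303), and all-gene calls numbered 5251, 4184, 4794 and 5414 against 4639, 3315, 3806 and 4527. With that block 30 ribosomal protein genes rose with MYCNWT and 58 were lower than with MYCN3A. Hosts of a few CPM (SNHG18, SNHG22, SNHG28 and SNHG31) could show large changes only.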
